A study of Mus musculus with 10 samples.

Results

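Chromatin contacts of promoters were scored pair by pair in lineage-negative bone marrow cells of mice with both Npm1c and Flt3-ITD (double mutant, DM), and the pairs described here are those that reached a score of 5 in DM cells only. A pair is 1 captured promoter fragment (the bait) and 1 other HindIII fragment. The rule took the pairs at 5 or more in both DM libraries that were not at 5 or more in both libraries of Flt3-ITD, Npm1c or WT cells and that were not listed for neutrophils. The members were thus chosen by their DM scores and by the scores of the groups they are set against. The rule left 14,923 of the 88,624 listed pairs (16.8%), which are 34.5% of the 43,228 pairs at 5 or more in both DM libraries. A further 1,464 DM pairs met the rule among the stem and progenitor cells and were left out because neutrophils listed them. The same rule gave 12,675 pairs for Flt3-ITD, 10,180 for Npm1c and 8,315 for WT cells.

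Per the labels, the DM cells were Npm1flox-cA/+;Flt3ITD/+;Mx1-Cre+, the Flt3-ITD cells Flt3ITD/+ with no Cre named, the Npm1c cells Npm1flox-cA/+;Mx1-Cre+, and the WT cells carried neither allele, all on C57BL/6. Each of these haematopoietic stem and progenitor (HSPC) groups had 2 biological replicates, as did the WT neutrophils. HSPC here means what a lineage depletion kit left of the bone marrow, a mixed population in which a change within a cell type and a change in the share of cell types cannot be told apart. Mx1-Cre acts in interferon-responsive cells, so Npm1c arises in blood cells and in other tissues, while the Flt3 allele is carried by every cell. The sources used here give neither age, sex nor the induction of Cre. Promoter-capture Hi-C joins fragments of chromatin that lie near each other in fixed nuclei and keeps by capture those joined products in which a promoter takes part. Here chromatin fixed in 1% formaldehyde was digested with HindIII and captured with 39,684 probes for 22,047 promoters. The deposited score has no stated unit and comes without counts, which leaves the depth of a library unknown.

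Promoters meet enhancers and other promoters through loops of chromatin, and in blood cells such contacts differ between stem cells, progenitors and mature lineages. Nucleophosmin, the product of Npm1, is a nucleolar chaperone, and its leukaemia mutant Npm1c sits in the cytoplasm and goes with high HOX gene activity. Flt3-ITD is a duplication in the Flt3 cytokine receptor that keeps it signalling through STAT5 and other pathways, and both mutations often occur together in acute myeloid leukaemia.

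The words "only in the double mutant" describe the threshold and not the scores. In the DM-only pairs the median score was 6.21 and 6.31 in the DM libraries, 3.78 and 3.98 in the Flt3-ITD libraries, 3.01 and 3.59 in the Npm1c libraries, and 3.46 and 2.85 in the WT libraries. At least 1 library of another group reached 5 in most of the pairs, and in 3,633 pairs (24.3%) 2 of these 6 libraries did. No more than 4,874 pairs (32.7%) had all 6 other libraries under 5, 642 (4.30%) had all 6 under 3, and 72 (0.482%) had all 6 under 1. The set is therefore called DM-only pairs below, in the sense of the rule alone.

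The promoters of 5 of the genes described below are printed because their fragments carry DM-only pairs that are far above the other groups: the fatty acid receptor gene Ffar1, Cd180 with its partner Pik3r1, and Skap2 with its partner Hoxa6. Each run is the 250 bases before and 50 bases after the gene's start from RefSeq, build GRCm38.p6, 5′ to 3′ on the strand of the gene. Capitals mark AAGCTT, the HindIII site, where a window holds it; the site in the Ffar1 window is the border of its bait fragment.
Ffar1, chr7:30861421-30861720, minus strand: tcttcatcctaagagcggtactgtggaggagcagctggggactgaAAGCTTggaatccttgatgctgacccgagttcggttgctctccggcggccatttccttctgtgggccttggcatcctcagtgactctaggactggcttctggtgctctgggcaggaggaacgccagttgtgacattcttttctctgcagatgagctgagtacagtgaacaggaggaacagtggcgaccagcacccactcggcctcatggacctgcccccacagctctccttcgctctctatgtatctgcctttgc
Cd180, chr13:102693297-102693596, plus strand: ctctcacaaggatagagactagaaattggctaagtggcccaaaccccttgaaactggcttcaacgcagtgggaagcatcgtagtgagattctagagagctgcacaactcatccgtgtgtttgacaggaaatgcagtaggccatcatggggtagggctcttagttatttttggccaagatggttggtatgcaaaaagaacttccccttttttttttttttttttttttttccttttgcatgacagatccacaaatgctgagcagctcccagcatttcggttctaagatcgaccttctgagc
Pik3r1, chr13:101768168-101768467, minus strand: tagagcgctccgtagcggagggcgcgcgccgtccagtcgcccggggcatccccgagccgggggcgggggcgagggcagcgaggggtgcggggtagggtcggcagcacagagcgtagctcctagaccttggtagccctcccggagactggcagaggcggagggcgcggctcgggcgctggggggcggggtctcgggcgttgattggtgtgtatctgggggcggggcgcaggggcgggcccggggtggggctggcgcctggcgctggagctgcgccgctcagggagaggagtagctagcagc
Skap2, chr6:52012500-52012799, minus strand: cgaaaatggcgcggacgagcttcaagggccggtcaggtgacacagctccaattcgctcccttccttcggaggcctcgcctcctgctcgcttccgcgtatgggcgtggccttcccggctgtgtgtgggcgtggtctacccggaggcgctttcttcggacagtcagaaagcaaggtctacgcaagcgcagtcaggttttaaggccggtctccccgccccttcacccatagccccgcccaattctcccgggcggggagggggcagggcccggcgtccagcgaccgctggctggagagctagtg
Hoxa6, chr6:52208623-52208922, minus strand: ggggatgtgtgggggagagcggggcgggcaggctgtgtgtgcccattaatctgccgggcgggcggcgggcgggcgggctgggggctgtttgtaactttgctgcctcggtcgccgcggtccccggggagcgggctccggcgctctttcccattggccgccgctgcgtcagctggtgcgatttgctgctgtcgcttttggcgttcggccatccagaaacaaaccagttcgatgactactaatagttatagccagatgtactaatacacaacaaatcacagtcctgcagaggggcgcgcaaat

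The G and C content of these windows was 56.3% for Ffar1, 44.0% for Cd180, 75.7% for Pik3r1, 66.0% for Skap2 and 62.0% for Hoxa6. AAGCTT occurs in 6.69% of the 21,263 RefSeq promoter windows of this length. The windows were also searched on both strands for TTCNNNGAA (the STAT5 motif, in 7.69% of all windows), TGTGGT (RUNX, 15.0%) and CACGTG (E-box, 7.84%). None of these 3 motifs is in the 5 windows printed, which says only that the letters are not there. The windows of Dse and Parp8, genes with many DM-only pairs, were searched too and are not printed; that of Dse holds 1 TGTGGT.

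Most DM-only pairs passed the threshold narrowly. The lower of both DM scores had a median of 5.69 and quartiles of 5.29 and 6.37, and it lay under 6 in 9,516 pairs (63.8%) and under 7 in 12,911 (86.5%). It reached 10 in 152 pairs (1.02%), and the highest value was 20.6. Both DM libraries scored above all 6 other libraries in 8,146 pairs (54.6%). The DM mean was at least 2 times the mean of every other group in 2,655 pairs (17.8%). Across the DM-only pairs the 2 DM replicates had a rank correlation of 0.188, against 0.545 over all listed pairs, both given as descriptions of pairs that share libraries. The rule narrows the range of DM scores in the DM-only pairs, so the 2 values do not compare agreement between replicates.

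In the scores as deposited, Flt3-ITD cells came closest to DM cells in these pairs among the other groups. The median DM difference on the log2(score + 1) scale was 0.64 from Flt3-ITD, 0.82 from Npm1c and 0.90 from WT; after quantile normalization the order turned, with 0.77, 0.77 and 0.68 in the same order. Flt3-ITD had the highest mean of the 3 other groups in 50.7% of DM-only pairs, Npm1c in 25.9% and WT in 23.3%. The share of DM-only pairs at 5 or more in a single library was 20.9% and 24.8% for Flt3-ITD, 13.4% and 21.6% for Npm1c, and 20.5% and 11.7% for WT. Part of this order holds for the libraries as a whole: over all listed pairs the medians were 5.55 and 5.63 in DM, 5.74 and 5.69 in Flt3-ITD, 5.10 and 5.60 in Npm1c, and 5.18 and 4.76 in WT. The second WT library had the lowest median in both sets, and the part of these library-wide levels in the counts of DM-only pairs was not tested.

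**Figure D1:**
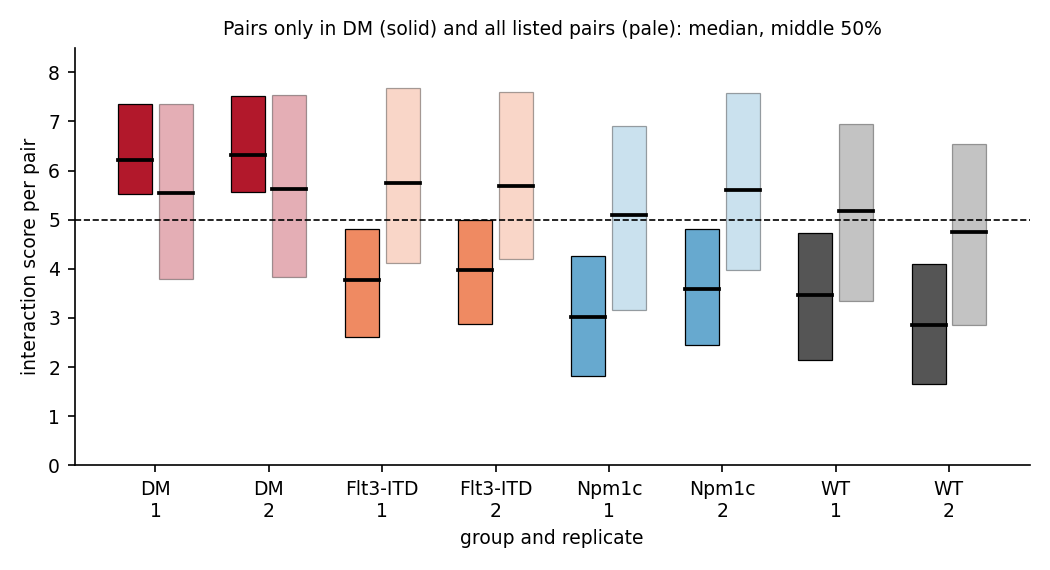
Scores of the DM-only pairs (solid) and of all listed pairs (pale) in each HSPC library, as median line and box of the middle 50%, with a dashed line at 5. The DM medians of 6.21 and 6.31 stand just above the threshold of 5, and the medians of the other 6 libraries lie between 2.85 and 3.98.

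Pairs on both sides of the threshold had similar scores. Itga1, which encodes the integrin alpha 1 chain, just entered with 5.00 and 9.86 in DM, 4.03 and 5.02 in Flt3-ITD, 1.58 and 2.41 in Npm1c, and 1.54 and 1.53 in WT libraries. On the other side, a contact of Gabbr1, which encodes a GABA receptor subunit, scored 6.08 and 6.49 in DM, 5.41 and 4.90 in Flt3-ITD, 7.82 and 5.00 in Npm1c, and 4.40 and 5.56 in WT libraries. It stayed out because the second Npm1c library just reached 5. A contact of the histone genes H2ac13 and H2bc13 stayed in with 6.58 and 6.02 in DM, 6.01 and 5.00 in Flt3-ITD, 4.58 and 3.31 in Npm1c, and 2.65 and 9.25 in WT libraries, the second Flt3-ITD library being just under 5.

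Strong pairs with almost no score elsewhere were long contacts. Zfp568, a KRAB zinc finger gene, met a fragment inside Prx, the gene of the myelin protein periaxin, 2,471 kb away, with 10.9 and 9.08 in DM, 0 and 0 in Flt3-ITD, 0 and 0 in Npm1c, and 0.562 and 0 in WT libraries. Fbxo5, which encodes the mitotic inhibitor Emi1, met a fragment inside the folate enzyme gene Mthfd1l, 1,828 kb away, with 11.1 and 8.97 in DM, 0 in both single mutants, and 0 and 0.797 in WT libraries.

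Other strong pairs of this kind joined a promoter with a fragment that holds no protein-coding gene. The co-chaperone gene Dnajb6 scored 8.94 and 8.86 in DM libraries over 5,840 kb, against 0 and 0.0233 in Flt3-ITD and 0 in Npm1c and WT libraries. Ccdc50, which encodes a coiled-coil protein of the ubiquitin pathway, scored 8.05 and 12.3 in DM libraries over 1,039 kb, against 0 in the 6 others. Between chromosomes the rule for such pairs gave the taste receptor gene Tas1r3 with a fragment of X at 7.79 and 7.44 in DM libraries, and Vwa1, an extracellular matrix gene, with the unplaced sequence 4_GL456216_random at 6.81 and 7.75. All 6 other libraries were under 1 in both.

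Many fragments of these pairs had scores in the other groups. Of the 72 DM-only pairs with all 6 other libraries under 1, 42 had an other end that appears in a further listed pair, and in all 42 a further pair scored 1 or more in a library of another group. For the Prx fragment, its 10 further pairs averaged 7.56 in DM, 6.87 in Flt3-ITD, 7.38 in Npm1c and 6.61 in WT cells. For the other 30 pairs the other end is in no further listed pair, and whether the fragment was measured elsewhere cannot be read from the list.

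**Figure D2:**
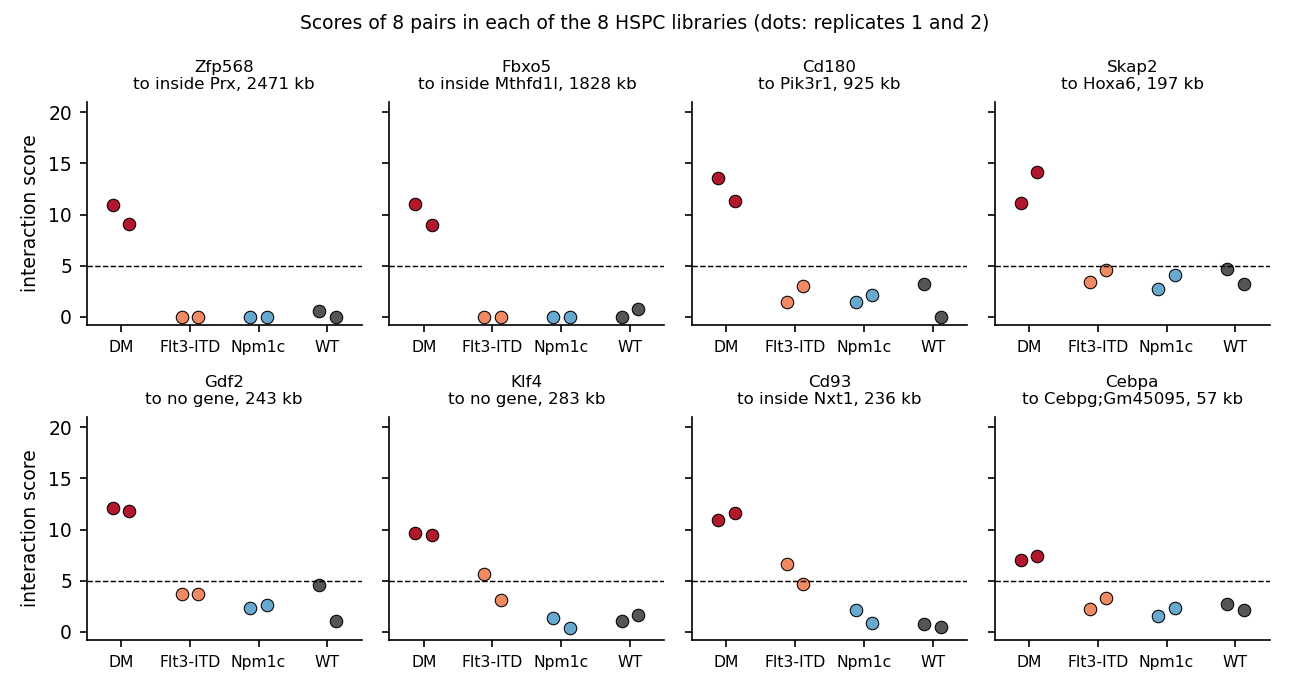
Interaction score of 8 named DM-only pairs, 1 panel each, with a dot for each library, groups ordered DM, Flt3-ITD, Npm1c and WT, and a dashed line at the threshold of 5. The 8 pairs score between 7.05 and 14.2 in DM libraries and at most 6.60 in the others, the pairs of Klf4 and Cd93 being highest in Flt3-ITD among these.

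Contacts between chromosomes were rare, and most of them were not low elsewhere. There were 13 among the DM-only pairs, 7 of them to the unplaced sequence 4_GL456216_random, and 10 had a library of another group at 5 or more. The highest joined Mad2l1, a spindle checkpoint gene on chromosome 6, with the fragment of BC053393 on chromosome 11, and was chosen after its values were seen. It scored 26.2 and 15.4 in DM, 32.6 and 0 in Flt3-ITD, 0 and 66.2 in Npm1c, and 0 and 0 in WT libraries. Captured from the BC053393 side it scored 22.8 and 14.6 in DM, 25.8 and 0 in Flt3-ITD, 0 and 64.5 in Npm1c, and 0 and 0 in WT libraries. Replicates of Flt3-ITD and of Npm1c thus stood apart in both directions of capture.

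On chromosome 1 there were 16 DM-only pairs over 50 Mb apart, of 160 such pairs in the whole list, all of them on chromosome 1. In 15 of them the first 6 Mb of the chromosome met a stretch near 88 Mb. The neuropeptide receptor gene Npbwr1 scored 15.6 and 30.4 in DM, 0 and 1.84 in Flt3-ITD, 7.06 and 0 in Npm1c, and 1.94 and 1.69 in WT libraries. Mroh2a, at the other side, met the fragment of the elongation factor gene Tcea1 with 20.6 and 20.9 in DM, 0 and 18.8 in Flt3-ITD, 3.42 and 3.42 in Npm1c, and 3.97 and 1.81 in WT libraries. Tcea1 as bait met a fragment near 88 Mb with 10.2 and 5.12 in DM, 0 and 0 in Flt3-ITD, 0 and 0 in Npm1c, and 0 and 26.0 in WT libraries. In the pair from Mroh2a the second Flt3-ITD library came near the DM scores, in the pair from Tcea1 the second WT library passed them, and the replicate of each was far lower.

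DM-only pairs were of middling length among the 4 one-group sets. Their median distance was 248 kb, against 280 kb for Flt3-ITD-only, 257 kb for Npm1c-only and 226 kb for WT-only pairs. The share over 1 Mb was 5.59% in DM-only, 10.7% in Flt3-ITD-only, 7.20% in Npm1c-only and 4.37% in WT-only pairs. The other end was itself a bait in 20.4% of DM-only, 15.4% of Flt3-ITD-only, 14.5% of Npm1c-only and 26.6% of WT-only pairs. These are descriptions of sets that each hold 2 libraries of their group, and no test was made of them.

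DM-only pairs lay close together more often than the other one-group pairs did. Another pair of the same bait and the same set had its other end within 10 kb in 34.4% of DM-only, 24.1% of Flt3-ITD-only, 21.3% of Npm1c-only and 17.9% of WT-only pairs; the DM-only set is also the largest. For 50.1% of DM-only pairs another HSPC group had a pair of the same bait at 5 or more within 10 kb of the other end, against 58.5% of Flt3-ITD-only, 55.8% of Npm1c-only and 51.6% of WT-only pairs. For DM-only pairs that share was 41.6% for Flt3-ITD, 30.6% for Npm1c and 24.9% for WT taken singly, and 17.9% for neutrophils. The neutrophil share was 17.5% in Flt3-ITD-only, 16.8% in Npm1c-only and 15.2% in WT-only pairs. Where the same contact was listed from its other promoter as well, in 1,123 pairs, the reverse was also a DM-only pair in 678 (60.4%). In the other sets the reverse was of the same set in 65.8% for Flt3-ITD-only, 57.7% for Npm1c-only and 57.0% for WT-only pairs.

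**Figure D3:**
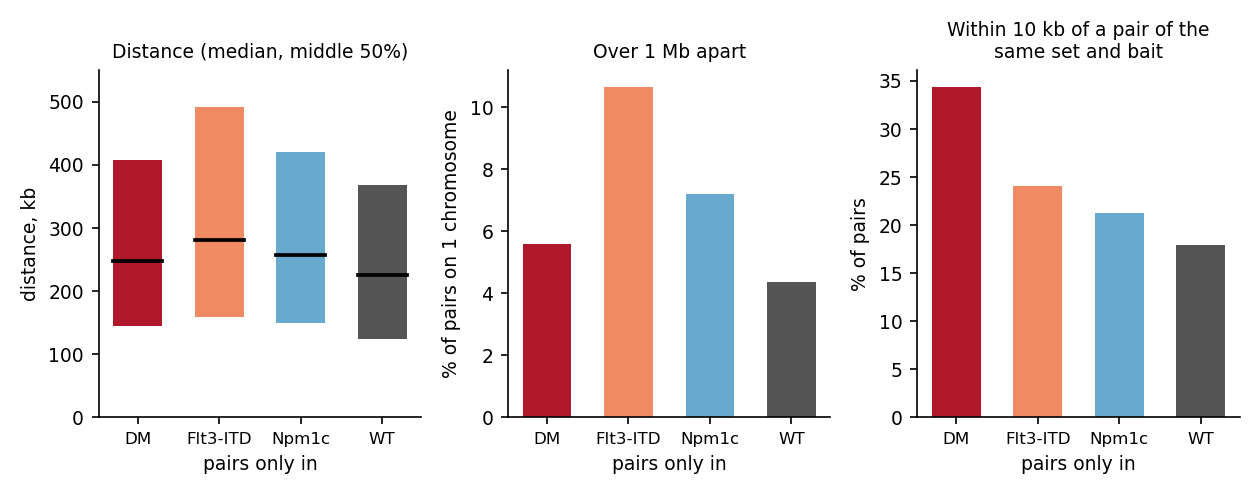
Distance in kb (line, median; box, middle 50%), share over 1 Mb among pairs on 1 chromosome, and share with another pair of the same bait and set within 10 kb, for DM-only, Flt3-ITD-only, Npm1c-only and WT-only pairs. DM-only pairs have the highest share with a same-set pair within 10 kb, 34.4%, and a median distance of 248 kb.

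The DM-only pairs spread over 6,452 of 12,186 baits, and 3,312 baits had a single one. At the other extreme 116 baits had 10 or more, 101 of them with a gene, and these held 1,701 DM-only pairs (11.4%). Baits with 10 or more pairs of their own set held 7.39% of the Flt3-ITD-only, 3.18% of the Npm1c-only and 3.99% of the WT-only pairs. The DM-only set is also the largest, and a fixed cut of 10 a bait makes no allowance for the size of a set. Dse, which encodes the epimerase that makes dermatan sulphate, had the most of any gene, 36 of its 92 listed pairs. Its fragment had 90 pairs at 5 or more in DM, 52 in Flt3-ITD, 15 in Npm1c and 9 in WT cells. Parp8, an ADP-ribosyltransferase family gene, had 33 of 85, with 82 pairs at 5 or more in DM, 24 in Flt3-ITD, 4 in Npm1c and 1 in WT cells. It also had 55 pairs in the neutrophil list.

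Several of the baits with the most DM-only pairs lie in 1 stretch of chromosome 7. Fam187b had 32 DM-only pairs of 85 listed, Dmkn, a gene of a secreted epidermal protein, 31 of 96, the fatty acid receptor genes Ffar3 and Ffar1 30 of 100 and 28 of 68, and Usf2, which encodes an E-box binding factor, 27 of 89. Outside that stretch the bait of Ccar2, which encodes an inhibitor of the deacetylase SIRT1, had 24 of 51, and St8sia1, the GD3 ganglioside synthase gene, 22 of 30. All 30 listed pairs of St8sia1 were at 5 or more in DM, 8 in Flt3-ITD, 0 in Npm1c and 0 in WT cells.

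The strongest DM-only pair of each of these promoters was well above 5 in DM and seldom near 0 elsewhere. Ffar1, whose promoter is printed above, met the fragment of Fxyd3, a regulator gene of the sodium pump, with 13.6 and 16.8 in DM, 2.62 and 7.59 in Flt3-ITD, 0.934 and 6.97 in Npm1c, and 3.21 and 4.08 in WT libraries. Dse met Zup1, which encodes a deubiquitinase, with 11.8 and 14.4 in DM, 5.97 and 3.74 in Flt3-ITD, 2.37 and 2.76 in Npm1c, and 6.67 and 3.21 in WT libraries. Parp8 met a fragment in its own body, 121 kb away, with 11.5 and 10.3 in DM, 3.33 and 5.75 in Flt3-ITD, 1.91 and 2.50 in Npm1c, and 3.79 and 2.57 in WT libraries. In all 3 both DM libraries stood above all the others.

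The same held for most of the remaining promoters of this group. Fam187b met a fragment inside Lgi4 with 10.7 and 11.6 in DM, 4.55 and 5.20 in Flt3-ITD, 4.44 and 7.31 in Npm1c, and 4.32 and 4.71 in WT libraries. Usf2 met the fragment of Dmkn with 11.0 and 11.4 in DM, 3.91 and 8.22 in Flt3-ITD, 4.63 and 6.50 in Npm1c, and 3.53 and 4.41 in WT libraries. Dmkn was the exception: it met a fragment inside Fxyd7 with 9.76 and 9.18 in DM, 3.20 and 10.5 in Flt3-ITD, 6.07 and 4.76 in Npm1c, and 1.90 and 2.87 in WT libraries. There the second Flt3-ITD library was above both DM libraries. Ffar3 met Lgi4 with 9.79 and 9.84 in DM, 7.06 and 4.39 in Flt3-ITD, 4.88 and 5.31 in Npm1c, and 7.59 and 1.86 in WT libraries. St8sia1 scored 9.34 and 9.50 in DM, 3.91 and 5.29 in Flt3-ITD, 3.22 and 3.95 in Npm1c, and 4.90 and 3.49 in WT libraries over 151 kb.

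**Figure D4:**
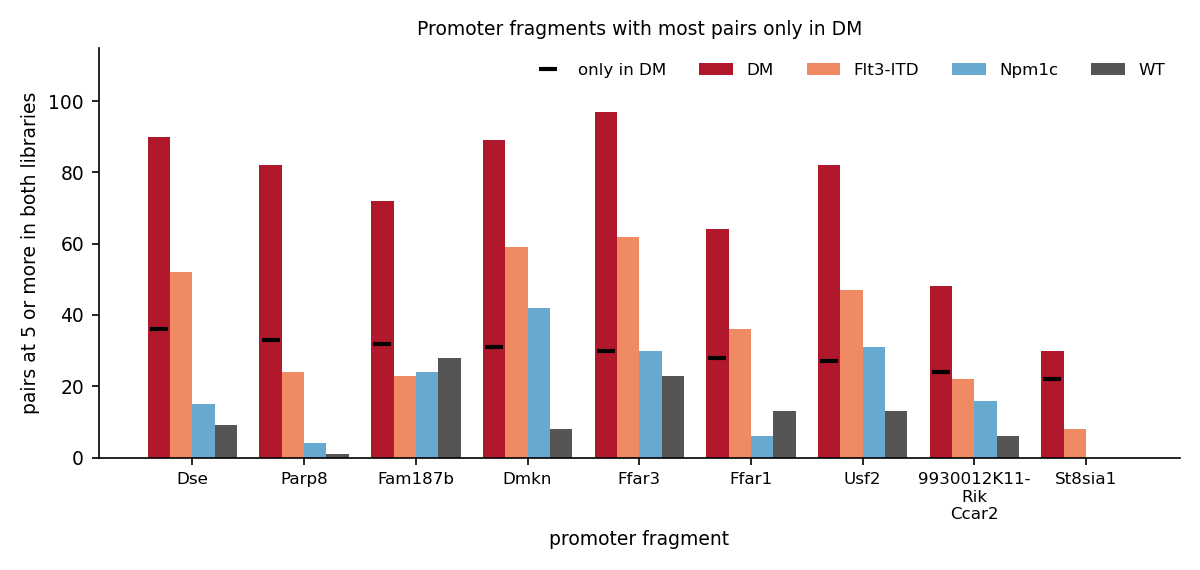
Gene baits among those with the most DM-only pairs, with bars for their pairs at 5 or more in both libraries of DM, Flt3-ITD, Npm1c and WT cells and a black mark for the number of DM-only pairs. Dse leads with 36 DM-only pairs, and St8sia1 has 30 pairs at 5 or more in DM against 0 in Npm1c and WT.

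Baits with at least 5 DM-only pairs that lay within 250 kb of each other were joined into loci. The largest ran over 804 kb of chromosome 7 (chr7:30316431-31120797) with Sdhaf1, Usf2 and the Ffar and Fxyd genes, and its 22 such baits held 358 DM-only pairs of 1,091 listed (32.8%). Counting every bait there gave 385 DM-only pairs, of which 373 (96.9%) also had their other end inside. The locus of Dse and the Calhm genes on chromosome 10 held 117 of 465, and that of Egr3, an immediate early gene of growth factor signalling, and Bin3 on chromosome 14 held 93 of 241. The chemokine locus of Ccl9, Ccl6, Ccl3, Ccl4 and Wfdc21 on chromosome 11 (chr11:83571718-83747983) had the highest share of these, 71 of 125 (56.8%). It held 6 Flt3-ITD-only pairs, 0 Npm1c-only and 0 WT-only pairs, and 64 pairs of the neutrophil list. Locus counts, apart from those of every bait, cover only baits chosen for their DM-only pairs, which raises the DM-only shares. Over all listed pairs the share was 16.8%, and no loci were built from the other one-group sets.

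Other loci of this size hold genes of unlike kinds. The stretch of Tor4a, the tubulin gene Tubb4b, Anapc2 and the glutamate receptor gene Grin1 on chromosome 2 held 86 of 239. The stretch of Cd69, an early activation marker, with Klrk1, Klre1 and other killer cell receptor genes on chromosome 6 held 82 of 249. The stretch of the lymphotoxin and TNF receptor genes Ltbr and Tnfrsf1a on the same chromosome held 75 of 228, and the S100a locus on chromosome 3 held 70 of 202. That of Alas1, Acy1 and Tlr9 on chromosome 9 held 68 of 180, and that of Ccr7 and keratin genes on chromosome 11 held 67 of 167. In the chemokine locus Ccl6 had 14 DM-only pairs of 20 listed. Its contact with Wfdc18, chosen after its values were seen, scored 7.18 and 8.59 in DM, 3.14 and 3.38 in Flt3-ITD, 2.39 and 2.29 in Npm1c, and 3.32 and 2.56 in WT libraries.

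Several strong DM-only pairs joined 2 promoters and were scored from both sides; those in this paragraph and the next were chosen after their values were seen. Cd180, which encodes a Toll-like receptor relative of B cells and myeloid cells, met the fragment of Pik3r1, the gene of the regulatory subunit of PI3 kinase, over 924.5 kb. The pair scored 13.6 and 11.3 in DM, 1.45 and 3.00 in Flt3-ITD, 1.46 and 2.16 in Npm1c, and 3.24 and 0 in WT libraries. Captured from Pik3r1 it scored 9.77 and 10.9 in DM, 1.41 and 3.09 in Flt3-ITD, 2.20 and 3.02 in Npm1c, and 3.12 and 0 in WT libraries. Every DM score was over 2 times every other score from either side. A second fragment, inside Pik3r1, met Cd180 with 6.77 and 8.67 in DM, 4.38 and 5.52 in Flt3-ITD, 0 and 1.57 in Npm1c, and 0 and 0.0609 in WT libraries.

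In the HoxA cluster, whose genes encode homeobox factors of blood progenitors, contacts came from Skap2 and, farther along the same side, from Cbx3 and Hnrnpa2b1. Skap2, which encodes an adaptor of Src family kinases, met the Hoxa6 fragment 197 kb away with 11.1 and 14.2 in DM, 3.46 and 4.58 in Flt3-ITD, 2.69 and 4.11 in Npm1c, and 4.64 and 3.17 in WT libraries. The bait of Cbx3, a heterochromatin protein gene, and Hnrnpa2b1, an RNA-binding protein gene, met the fragment of Hoxa3 and Hoxa7 over 745 kb with 13.1 and 13.8 in DM, 1.79 and 5.07 in Flt3-ITD, 2.79 and 10.9 in Npm1c, and 6.86 and 3.97 in WT libraries. From the Hox side it scored 8.70 and 9.06 in DM, 0 and 1.88 in Flt3-ITD, 0.872 and 4.87 in Npm1c, and 3.90 and 1.40 in WT libraries. The DM libraries were the highest in all 3, and the second Npm1c library came nearest in the pair of Cbx3. Gdf2, the gene of the vascular ligand BMP9, had all 15 of its listed pairs in the set. One of them, over 243 kb, scored 12.1 and 11.8 in DM, 3.67 and 3.72 in Flt3-ITD, 2.38 and 2.63 in Npm1c, and 4.60 and 1.08 in WT libraries.

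Counts in 18 gene lists were read against all baits with a gene, where 12,128 of 71,250 listed pairs (17.0%) were DM-only. Of the same 71,250 pairs 10,210 were Flt3-ITD-only, 8,113 Npm1c-only and 6,651 WT-only. Those are the reference for the one-group counts of the lists here and below. Of all 88,624 listed pairs, 14,093 were also listed for neutrophils, and the rule bars these from the set. A list with many such pairs has a lower share by the rule, and their part in each list was not counted. Leukaemia suppressor and differentiation factors had the highest share, 43 of 116 pairs (37.1%), with 13 Flt3-ITD-only, 10 Npm1c-only and 11 WT-only pairs. Of its 16 genes with a bait, 11 had a DM-only pair, against 5,886 of all 10,789 genes with a bait. Klf4, a factor of monocyte differentiation, had 8 of 11, Etv6, a repressor of the ETS family needed by marrow stem cells, 8 of 13, and Klf2, a factor of quiescent lymphocytes and endothelium, 7 of 30. Cebpa, the leading factor of the granulocyte lineage, had 5 of 6.

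The contacts of these factors reached well over 5 in DM cells. The strongest of Klf4, over 283 kb, scored 9.69 and 9.51 in DM, 5.66 and 3.17 in Flt3-ITD, 1.34 and 0.382 in Npm1c, and 1.06 and 1.70 in WT libraries. That of Etv6 scored 10.5 and 9.31 in DM, 3.55 and 6.48 in Flt3-ITD, 1.97 and 3.91 in Npm1c, and 1.32 and 0.717 in WT libraries. Cebpa met the fragment of its relative Cebpg, 57.5 kb away, with 7.05 and 7.39 in DM, 2.25 and 3.35 in Flt3-ITD, 1.55 and 2.37 in Npm1c, and 2.71 and 2.12 in WT libraries. For Klf4 and Etv6 both Flt3-ITD libraries lay between the DM and the WT libraries, and for Cebpa the Flt3-ITD and WT libraries overlapped.

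Myeloid lists also had shares above 17.0%, with genes at both ends of the range. Macrophage and dendritic genes had 20 of 59 (33.9%), among them Batf3, a factor of cross-presenting dendritic cells, with 4 of 4, and Ciita, the activator of MHC class II genes, with 2 of 2. In the same list Ccr2 had 0 of 12, Itgax 0 of 3, Cd14 0 of 1 and Cd74 2 of 16. Mature neutrophil genes had 48 of 189 (25.4%). Wfdc21 had 16 of 53, the chemokine receptor gene Cxcr4 8 of 40 and the collagenase gene Mmp8 7 of 14. Lower in that list were S100a9 with 3 of 28, S100a8 with 2 of 16 and Camp with 0 of 3. Early granulocyte and monocyte progenitor genes had 15 of 62 (24.2%), with the granule enzyme genes Elane at 1 of 20, Mpo at 1 of 6 and Ctsg at 0 of 3, and basophil, eosinophil and mast cell genes 6 of 18 (33.3%). Csf3r, the receptor gene of G-CSF, had 2 of 2, and its stronger pair scored 7.25 and 7.19 in DM, 3.30 and 8.92 in Flt3-ITD, 0 and 4.21 in Npm1c, and 0 and 0 in WT libraries. That of Ciita scored 6.47 and 7.43 in DM, 3.31 and 1.70 in Flt3-ITD, 1.49 and 2.07 in Npm1c, and 1.81 and 0.975 in WT libraries.

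Genes tied to each single mutation were in the set as well. The list of HoxA and HoxB genes plus their cofactors Meis1 and Pbx3 had 40 of 126 pairs (31.7%), with 17 Flt3-ITD-only, 14 Npm1c-only and 9 WT-only pairs. Hoxb8 had 13 of 32, and its strongest, to a fragment inside Skap1, scored 9.42 and 7.57 in DM, 4.52 and 7.62 in Flt3-ITD, 4.69 and 4.94 in Npm1c, and 6.23 and 4.86 in WT libraries. There the second Flt3-ITD library reached the lower DM score. Flt3-ITD and STAT5 response genes had 76 of 324 (23.5%). The cyclin gene Ccnd1 led with 14 of 37, before the ERK phosphatase gene Dusp5 with 9 of 20 and the repressor gene Bcl6 with 8 of 20. Other genes of that list lay under 17.0%: Pim2 had 1 of 25, Cish 0 of 14, Fos 0 of 14, Socs1 0 of 5 and Pim1 0 of 3. Ccnd1 scored 10.7 and 8.83 in DM, 5.15 and 3.65 in Flt3-ITD, 1.24 and 3.50 in Npm1c, and 4.92 and 3.11 in WT libraries over 168 kb.

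Lists of lymphoid and other cell types, among them cells that lineage depletion removes, had shares near or above that of all gene baits. T and NK lineage genes had 20 of 83 (24.1%), B lineage genes 18 of 84 (21.4%), adhesion and marrow stroma genes 10 of 47 (21.3%), and megakaryocyte and platelet genes 9 of 48 (18.8%), the last of which lies near 17.0%. Neural genes, held for comparison as genes silent in blood and not as cells of the marrow, had 10 of 44 (22.7%). Klrk1, the NKG2D receptor gene, had 7 of 18, the strongest at 11.3 and 12.8 in DM, 0 and 5.03 in Flt3-ITD, 0 and 0.694 in Npm1c, and 0 and 0 in WT libraries. Foxo1, a factor of early B cells among others, had 9 of 28, the strongest at 16.7 and 12.1 in DM, 4.88 and 8.30 in Flt3-ITD, 0.324 and 14.4 in Npm1c, and 4.79 and 6.47 in WT libraries. In lists of this size a few baits set the share. The part of other cell types in the DM-only pairs was not tested.

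Below 17.0% were stem and progenitor genes with 28 of 240 (11.7%), housekeeping genes with 23 of 201 (11.4%), interferon response genes with 17 of 144 (11.8%), and cell cycle and replication genes with 26 of 239 (10.9%). Single baits weigh in some of these shares, as leaving out the gene with the most listed pairs showed, a step chosen after seeing the data. Ikzf2 had 0 of 69 in the stem list, which without it stood at 28 of 171 (16.4%). Irgm1 had 1 of 59 in the interferon list, which without it stood at 16 of 85 (18.8%), above the share of all gene baits. Gapdh had 0 of 41 in the housekeeping list, which without it stood at 23 of 160 (14.4%). The cell cycle list stood at 11.2% without Mcm5. The same step left every list above 17.0% above it. Without Hoxb8 the list of Hox genes and cofactors stood at 28.7%. Flt3-ITD and STAT5 response genes stood at 21.6% without Ccnd1, and macrophage and dendritic genes at 41.9% without Cd74. Cd93, a surface marker of early progenitors, had 8 of 27, the strongest to a fragment inside Nxt1 with 11.0 and 11.7 in DM, 6.60 and 4.70 in Flt3-ITD, 2.10 and 0.846 in Npm1c, and 0.796 and 0.493 in WT libraries. Erg, an ETS factor of stem cells, had 2 of 2 and scored 11.1 and 9.67 in DM, 4.77 and 4.80 in Flt3-ITD, 2.84 and 7.59 in Npm1c, and 5.17 and 4.46 in WT libraries. Erythroid genes had 6 of 136 (4.41%), with 13 Flt3-ITD-only, 15 Npm1c-only and 20 WT-only pairs. Without Car2 that list stood at 3 of 88 (3.41%). The list of menin-MLL complex genes and chromatin partners had 2 of 65 (3.08%), with 6 Flt3-ITD-only, 14 Npm1c-only and 14 WT-only pairs. Most of its pairs lay on the deacetylase gene Hdac6, with 0 of 25, and the cohesin release gene Wapl, with 0 of 18; without Hdac6 the list stood at 2 of 40 (5.00%). Its 2 DM-only pairs were on Dot1l, a histone H3 methyltransferase gene, and Kat7, a histone acetyltransferase gene.

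**Figure D5:**
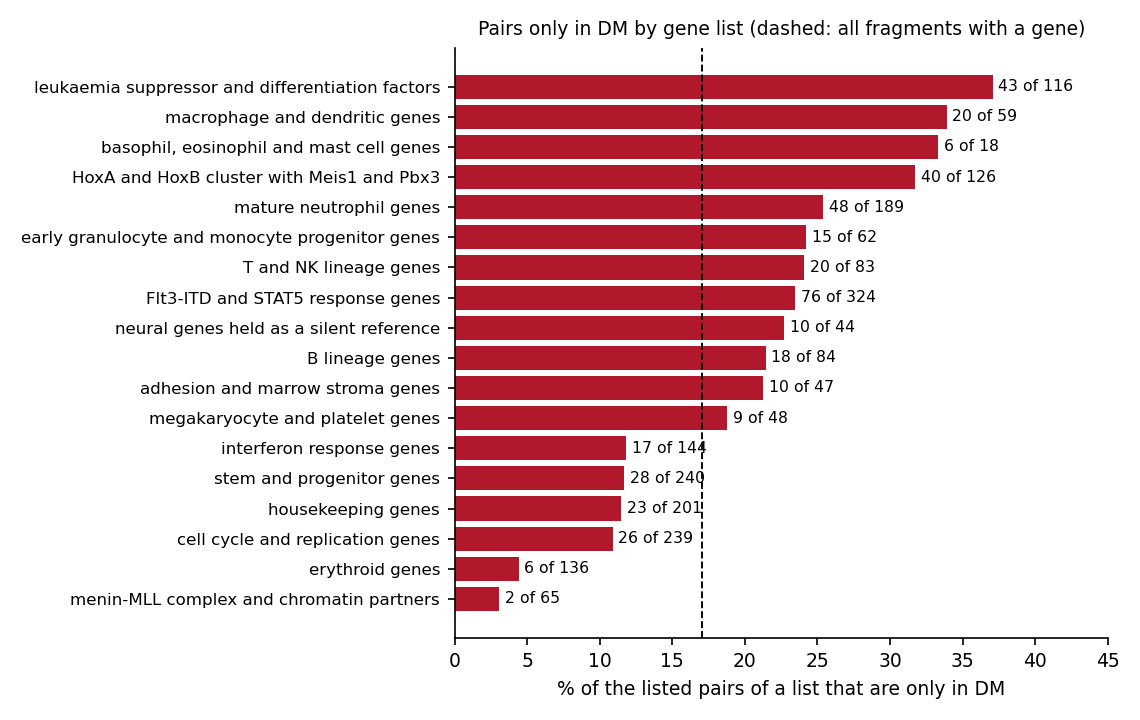
Share of listed pairs that are DM-only for each gene list beside the share over all baits with a gene. The lists run between 3.08% for menin-MLL complex genes and chromatin partners and 37.1% for leukaemia suppressor and differentiation factors, around 17.0% for all baits with a gene.

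The rule also used the Flt3-ITD, Npm1c and WT scores: it held each of these groups under 5 in at least 1 library, alike for all 3. The DM-only counts and differences between them are therefore descriptions, and nothing is read from them. They come from limma on log2(score + 1), fitted over all 88,421 pairs on autosomes and X with Benjamini-Hochberg adjustment. This held 14,913 of the DM-only pairs. Between Flt3-ITD and WT cells 29 DM-only pairs were higher in Flt3-ITD and 3 lower, against 0.477% and 0.0905% of all pairs tested, and the 29 are 0.194% of the DM-only pairs. At an unadjusted p under 0.05 there were 1,206 higher and 147 lower, which is 8.09% and 0.986%, against 11.2% and 2.96% of all pairs. The median difference was 0.23 in the DM-only pairs and 0.23 over all pairs. After quantile normalization these medians were -0.12 and -0.01, with 8 DM-only pairs higher and 7 lower, against 279 and 169 of all 88,421 pairs. At an unadjusted p under 0.05, 345 DM-only pairs were then higher and 781 lower, against 5,263 and 6,456 of all pairs. Both are smaller shares than over all pairs. In the scores as deposited both Flt3-ITD libraries had higher medians over all pairs than both WT libraries, as given above.

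Between Npm1c and WT cells 8 DM-only pairs were higher in Npm1c and 0 lower, against 0.225% and 0.0848% of all pairs, and the median difference was 0.05 in DM-only pairs against 0.12 over all. At an unadjusted p under 0.05, 687 were higher and 390 lower, against 8.35% and 4.12% of all pairs. After quantile normalization this turned to 324 higher and 693 lower, against 4,500 and 4,983 of all 88,421 pairs. The median was then -0.10 in DM-only pairs and -0.01 over all. Between Flt3-ITD and Npm1c cells 11 were higher in Flt3-ITD and 2 lower, against 0.278% and 0.147% of all pairs, with medians of 0.17 in DM-only pairs and 0.11 over all. At an unadjusted p under 0.05 these were 758 and 155, against 5.9% and 2.91% of all pairs. After quantile normalization they were 474 and 462, against 4,162 and 4,690 of all pairs, with a median of -0.01 in DM-only pairs. In both contrasts these normalized counts are smaller shares of the DM-only pairs than of all pairs, in either direction. The calls of DM-only pairs in these contrasts are few and hardly held when 1 library of the groups compared was left out. Such a fit leaves 1 library in a group. In most of these fits nearly all calls over all pairs tested were lost too. Without Npm1c replicate 2, however, Flt3-ITD against Npm1c kept many calls over all pairs.

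The pairs that passed were mostly at 0 in both libraries of 1 group; their differences are given as descriptions. Arhgdia, which encodes an inhibitor of small GTPases, met the fragment of the mRNA export gene Alyref and Anapc11, 16.0 kb away, with 5.94 and 6.41 in DM, 3.98 and 4.59 in Flt3-ITD, 4.21 and 4.35 in Npm1c, and 0 and 0 in WT libraries. The difference from WT was 2.40 on the log2 scale (SE 0.29) in Flt3-ITD and 2.40 in Npm1c. All 5 further listed pairs of that other end were also at 0 in both WT libraries, while 7 further pairs of Arhgdia averaged 4.26 there. The contact of Irx5 with Fto and Rpgrip1l, over 1,045 kb, scored 6.38 and 7.87 in DM, 6.12 and 4.00 in Flt3-ITD, 3.59 and 4.51 in Npm1c, and 0 and 0 in WT libraries. Irx5 encodes a homeobox factor, and Fto an RNA demethylase. The difference from WT was 2.58 (SE 0.32) in Flt3-ITD and 2.33 in Npm1c.

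Other such pairs were above 0 in 1 single mutant and at 0 in the other. Parl, the gene of a mitochondrial rhomboid protease, met the fragment of the replication factor gene Cdc45 and Ufd1 over 1,493 kb with 7.37 and 10.1 in DM, 3.97 and 6.67 in Flt3-ITD, 0 and 0 in Npm1c, and 0 and 0 in WT libraries. Flt3-ITD stood above WT by 2.63 (SE 0.34) and above Npm1c by 2.63. Phf3, a gene of an RNA polymerase II binding protein, scored 9.00 and 9.02 in DM, 0 and 0 in Flt3-ITD, 4.38 and 7.86 in Npm1c, and 0 and 0 in WT libraries over 2,887 kb. Npm1c stood above WT by 2.79 (SE 0.34), and Flt3-ITD minus Npm1c was -2.79. In DM cells both pairs were above 5, and each was above 0 in 1 of the single mutants and at 0 in WT.

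Further pairs that passed differed in either direction. Cetn3, a centrin gene, met a fragment inside Arrdc3 with 9.32 and 13.0 in DM, 4.16 and 3.60 in Flt3-ITD, 4.86 and 8.38 in Npm1c, and 0 and 0.00803 in WT libraries, and Npm1c exceeded WT by 2.88 (SE 0.35). Tmpo, the gene of a nuclear lamina protein, met Lta4h, a leukotriene enzyme gene, with 13.7 and 8.69 in DM, 0 and 0 in Flt3-ITD, 0 and 0 in Npm1c, and 3.37 and 8.74 in WT libraries. Flt3-ITD minus WT was -2.71 there (SE 0.43). Foxc1, a forkhead factor gene, scored 6.60 and 6.00 in DM, 7.82 and 4.73 in Flt3-ITD, 0 and 0.349 in Npm1c, and 0 and 0.235 in WT libraries, and Flt3-ITD exceeded Npm1c by 2.61 (SE 0.35). In the first DM was highest, in the second a WT library reached the lower DM score, and in the third the Flt3-ITD and DM libraries overlapped.

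The contrasts with DM itself chose the pairs and support nothing. In them 276 DM-only pairs passed as higher in DM than in WT, 111 as higher than in Flt3-ITD and 204 as higher than in Npm1c, and 0 as lower in each, by limma. Over all pairs tested, 0.42%, 0.137% and 0.278% were called higher and 0.156%, 0.321% and 0.283% lower in these contrasts. At an unadjusted p under 0.05, 0 DM-only pairs were lower in DM in any of the 3, against 6.0%, 7.14% and 7.8% of all pairs.

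Promoters were tested on the mean log2(score + 1) of their pairs, taking only pairs that groups outside the contrast had brought into the list, for baits with at least 10 such pairs. These outside groups were mutants too, among them DM. For Flt3-ITD against WT 134 of 1,858 promoters were higher in Flt3-ITD (7.21%) and 0 lower by limma. After quantile normalization 5 were higher and 2 lower. Without WT replicate 1 or 2 it was 460 (with 5 lower) or 12 higher, and without Flt3-ITD replicate 1 or 2 it was 15 or 0. The 116 baits with 10 or more DM-only pairs were picked by a count that uses the same WT and Flt3-ITD scores, so their shares and medians are descriptions. Among them 11 were higher (9.48%), and at an unadjusted p under 0.05 there were 63 (54.3%), against 32.7% of all promoters, while 0 of the 116 and 0.592% of all promoters were lower. Their median difference was 0.41, against 0.28 over all promoters tested. For Npm1c against WT 2 of 1,960 were higher (0.102%), and 0 of the 116; 3 of the 116 were higher at an unadjusted p under 0.05, against 10.3% of all promoters, and 0 were lower, against 0.459%.

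Of the promoters with many DM-only pairs that were higher in Flt3-ITD than in WT, Gdf2, Stxbp6 and Parp8 lay between DM and WT in level, and Styk1 did not. Gdf2, whose 15 pairs tested are all DM-only pairs, averaged a log2 score of 3.18 and 3.20 in DM, 1.73 and 2.09 in Flt3-ITD, 1.46 and 1.08 in Npm1c, and 1.15 and 1.02 in WT libraries. Flt3-ITD exceeded WT by 0.83 there (SE 0.18, limma adjusted p = 0.0203). In all of these pairs the rule had held Flt3-ITD and WT under 5 in at least 1 library each. Stxbp6, which encodes the SNARE-binding protein amisyn, averaged 3.08 and 3.08 in DM, 2.48 and 2.44 in Flt3-ITD, 1.99 and 1.77 in Npm1c, and 1.65 and 1.44 in WT libraries, a difference of 0.92 between Flt3-ITD and WT (SE 0.17, adjusted p = 0.0115). Parp8 averaged 3.29 and 3.49 in DM, 2.26 and 2.60 in Flt3-ITD, 1.93 and 1.86 in Npm1c, and 1.94 and 1.50 in WT libraries, a difference of 0.71 (SE 0.19, adjusted p = 0.0408). In all 3 both Flt3-ITD libraries were above both WT libraries and below both DM libraries. The DM level is no evidence here, since DM scores brought the pairs in. The promoters here and in the next paragraph were named for their DM-only pairs. Their differences and adjusted p-values are therefore descriptions too.

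The kinase gene Styk1 was higher in Flt3-ITD by 1.24 (SE 0.24, limma adjusted p = 0.0133), and its second Flt3-ITD library, at 3.75, was above both DM libraries, at 3.48 and 3.14. Dmkn was higher by 0.67 (adjusted p = 0.0364), St8sia1 by 0.71 (adjusted p = 0.0255), the bait of the lymphotoxin receptor gene Ltbr and the sodium channel gene Scnn1a by 0.76 (adjusted p = 0.0200), the protease inhibitor gene Serpina3n by 0.76 (adjusted p = 0.0255) and Prkch, the gene of protein kinase C eta, by 0.70 (adjusted p = 0.0429). The remaining 2 of the 11 are baits with no gene start, inside Klrd1 and Sorbs3. Klf4 and Cd93, each with 8 DM-only pairs, were higher by 0.85 (adjusted p = 0.0133) and 0.76 (adjusted p = 0.0200). Dse missed the threshold with a difference of 0.50 (adjusted p = 0.0733), as did Ffar3 (adjusted p = 0.0590) and Ffar1 (adjusted p = 0.0650). Fam187b had a difference of -0.06 (adjusted p = 0.846). After quantile normalization 1 of the 116 baits passed, with a median difference of 0.10 in these baits against 0.01 over all promoters, and leaving out a library gave 58 (WT replicate 1), 0 (WT replicate 2), 2 (Flt3-ITD replicate 1) and 0 (Flt3-ITD replicate 2).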

How the data were processed

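Promoter-capture Hi-C of 10 libraries (5 groups of 2) was read from files that list fragment pairs. The deposited values are interaction scores, never negative; the sources used here give no caller, filters or unit for them. Per the submitters' processing notes the build was mm10. A further column holds another quantity, the signed distance in bp. With no counts deposited, depth is unknown and the spread between 2 replicates is the only error; an exact permutation test of 2 against 2 cannot go under 0.333.

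DM-only pairs were found by the rule given in the report. Protein-coding genes were placed on a fragment that holds their transcription start in RefSeq GRCm38.p6. Only for genes with no promoter entry did either end of the gene count. Without such a start or end, a fragment is "inside" a gene or holds no gene. Contrasts were fitted with limma 3.58.1 in R 4.3.3 (lmFit, eBayes, two-sided) on log2(score + 1), the 8 HSPC libraries in 1 fit, Benjamini-Hochberg at 0.05; folds on this scale understate changes of low scores. Scripts were tested on simulated data. The 10 DM-only pairs on Y or unplaced sequence were not tested.

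Pairs named by rule were the 5 strongest on 1 chromosome and 5 between chromosomes (2 qualified) with all 6 other libraries under 1, the 10 gene baits with most DM-only pairs, up to 3 genes a list, up to 5 calls a direction and the pairs nearest the threshold; no listed pair scored just under 5 by the rest of the rule, so pairs with another group near 5 stand in. The members and the lists, 17 of them from an earlier treatment of these data, were chosen with earlier results of these data known. Alternatives were another pseudocount, quantile normalization, a filter on low scores, the replicate number as a block, fewer libraries and other thresholds. A few pairs and 1 bait that the rule names are not reported here.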

Additional observations from a re-analysis of the deposited data

How the results depend on the processing

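The number of DM-only pairs, 14,923, fell to 2,012 at a DM threshold of 7 and 152 at 10, to 4,874, 642 and 72 with every other library under 5, 3 and 1, and to 11,815 after quantile normalization, of which 10,985 were in both sets. Keeping neutrophil pairs gave 16,387, and deciding a group by 1 library gave 11,229 to 14,923. The upper value is fixed by the list, in which each pair is at 5 or more in both libraries of some HSPC group. Leaving out a DM library therefore cannot change the count and says nothing about its stability. With every other library under 1, or DM at 10 or more, the median distance was 2,332 and 659 kb, the share over 1 Mb 82.9% and 32.4%, and the share with a bait as other end 27.8% and 38.2%. Called DM-only pairs numbered 32 for Flt3-ITD against WT and became 63 with a pseudocount of 0.1, 0 with 5, 15 after quantile normalization, 6 among pairs with a mean of at least 3, 2 with 4 libraries and 0 to 0 without 1 library. The 8 for Npm1c against WT became 54, 0, 10, 0, 0 and 0 to 0, and the 13 for Flt3-ITD against Npm1c became 42, 0, 17, 0, 0 and 0 to 1, in the same order. For DM against WT the 276 became 184, 1, 145, 10, 0 and 0 to 0, for DM against Flt3-ITD the 111 became 69, 73, 223, 2, 169 and 0 to 0, and for DM against Npm1c the 204 became 140, 116, 258, 7, 0 and 0 to 0. The 11 promoters higher in Flt3-ITD than in WT became 1 with at least 5 pairs a bait, 8 with a pseudocount of 0.1, 1 after quantile normalization and 0 to 58 without 1 library: 58 and 0 when WT replicate 1 or 2 was left out, 2 and 0 when Flt3-ITD replicate 1 or 2 was. For Npm1c against WT it was 0 in each. The cause of these changes was not tested. Over all 88,421 pairs, Flt3-ITD against WT had 422 higher and 80 lower, and 287 and 64 with a pseudocount of 5. With 4 libraries it had 425 and 73. A count of 0 or 2 DM-only pairs there is thus not a count over all pairs. Npm1c against WT had 199 and 75, then 17 and 4 with a pseudocount of 5, and 0 and 0 with 4 libraries. Flt3-ITD against Npm1c had 246 and 130, then 160 and 102, and 0 and 0.

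The replicate numbers are shared labels: same-numbered libraries correlated between -0.012 and 0.061 in their deviations, so they were not taken as pairs. With the replicate block the called DM-only pairs were 12, 3 and 7 for Flt3-ITD and Npm1c against WT and Flt3-ITD against Npm1c. Over all 88,421 pairs the block gave 286 higher and 58 lower, 135 and 57, and 198 and 111 there. For DM against WT, Flt3-ITD and Npm1c the DM-only calls were 165, 81 and 152. Over all pairs these contrasts gave 211 and 76, 88 and 212, and 174 and 164. Among the baits with 10 or more DM-only pairs, the promoter calls were 8 and 0 for Flt3-ITD and Npm1c against WT. Over all promoters tested 68 and 1 were higher and 0 lower. Of 28 named pair differences followed through 274 alternative values, 66 kept direction and call, 208 lost the call and 0 reversed; of 120 values for 15 promoters 40 kept both and 80 lost the call.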

Other observations

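On the X chromosome DM-only pairs were scarce. They made up 129 of 1,456 listed X pairs (8.86%), against 12.6% Flt3-ITD-only, 16.9% Npm1c-only and 25.2% WT-only pairs. The median score of X pairs was 4.12 and 4.66 in DM, 4.92 and 5.00 in Flt3-ITD, 5.15 and 5.53 in Npm1c, and 5.49 and 5.68 in WT libraries. On the autosomes it was 5.56 and 5.64 in DM, 5.75 and 5.70 in Flt3-ITD, 5.10 and 5.60 in Npm1c, and 5.17 and 4.74 in WT libraries. Whether the animals of each group were of the same sex was not given in the sources used here. Among the autosomes the share of listed pairs that were DM-only ran between 12.8% on chromosome 8 and 19.9% on chromosome 19.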
